A study of Homo sapiens with 32 samples.

Results

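Human granulosa cells of the line HGrC1 that had been kept in 0.01 µM PFOS for 12 weeks were compared with cells kept in vehicle for the same 12 weeks, across all genes and gene groups. PFOS (perfluorooctane sulfonate) is a persistent fluorinated surfactant, and 0.01 µM was the lowest of the 3 concentrations that the study used. The comparison took all 8 samples that carry these labels, 4 exposed and 4 control, out of 32 in the series. The other 24 samples were cells at 0.1 or 1 µM for 12 weeks and all 4 groups at 6 weeks. HGrC1 is a single immortalized line, so the 4 replicates of a group were not donors: each was a vial frozen on a different date, thawed and expanded on its own, and then divided among the 4 groups. PFOS was renewed at each passage. Controls received 0.05% DMSO, and all cells grew in medium with 10% fetal bovine serum and 100 nM of a steroid, which the sample labels name as estradiol and the study's methods as testosterone. RNA with a poly(A) tail was sequenced, and all genes tested were labelled mRNA in the tables.

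Granulosa cells surround the oocyte in the ovarian follicle. They turn androgen into estradiol under follicle-stimulating hormone, feed the oocyte through gap junctions, and secrete inhibin, activin and anti-Müllerian hormone. PFOS binds serum albumin and fatty acid binding proteins, and it has been studied as a ligand of the nuclear receptor PPARα, which controls fatty acid oxidation. Receptors that sense foreign chemicals act through known target genes: the aryl hydrocarbon receptor (AHR) drives CYP1A1 and CYP1B1, and NRF2 drives NQO1, HMOX1 and the glutathione genes.

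The 8 samples held 18093090 to 18553348 assigned reads each, and no pair of samples was identical. Levels are given as CPM (counts per 1000000 reads, scaled by TMM) unless stated otherwise. GATA4, a granulosa transcription factor, stood at 111 to 131 CPM in the controls, and AMH (anti-Müllerian hormone) at 11.2 to 13.7 CPM. FOXL2, which maintains granulosa identity, was low at 0.710 to 1.16 CPM in the controls. CYP19A1, the aromatase that makes estradiol, had 1 read in 1 of the 8 samples and none in the other 7, and the gonadotropin receptors FSHR and LHCGR had no value in the tables. The defining markers were therefore present in part. Control replicate 3 stood apart by transcripts of liver secreted proteins: AFP, AHSG, ALB, APOB, GPC3 and AMBP together had 919 reads there and 72 to 131 in each of the other 7 samples. All 8 tested genes of the liver list were lower in the exposed group with a median log2 fold change of -0.90, and without control replicate 3 their median was 0.01 with 4 of 8 above 0.

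No gene passed the test at 0.01 µM after 12 weeks. Of 12742 genes, 0 (0%) had a Benjamini-Hochberg adjusted p of at most 0.05 in edgeR's quasi-likelihood test together with a 2-fold change, and 0 had such an adjusted p at any fold. The lowest adjusted p was 0.472, shared by 30 genes. At an unadjusted p under 0.05 stood 1080 genes (8.48%), of which 518 were higher (4.07%) and 562 lower (4.41%) in the exposed cells. DESeq2 on the same 16 samples of 12 weeks also gave 0 genes by adjusted p and 1024 by unadjusted p, while on the 8 samples alone it gave 4 by adjusted p, none of them 2-fold. The 1080 genes became 575 without control replicate 3 and 337 without vial 3 of every group. Vials 1 and 2 alone gave 0 called genes and vials 3 and 4 alone gave 43. This division of the vials was made after their values were seen, so these 2 counts are a description and nothing is read from them. The values below are therefore differences of size and order, given with their errors, and none is a called change.

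The differences were small. The median gene differed by 0.06 on the log2 scale in absolute size, and 99% of genes by less than 0.63. The 95% interval of the fold change lay wholly within 2-fold for 12268 genes (96.3% of those tested) and within 1.5-fold for 11158 (87.6%). For the other 474 genes a 2-fold change was not excluded, and 420 of them had a mean below 50 counts. The median such gene had 12.5 counts, against 601 for the genes whose interval excluded a 2-fold change. A 2-fold estimate was reached by 26 genes, 17 of them lower, and 12 of the 26 had an unadjusted p under 0.05. The highest estimate of all, 6.82 on the log2 scale for PGBD3, came from 0 reads in all 4 controls against 17, 29, 10 and 0 reads in the exposed samples. This gene was picked after its values were seen, its fitted fold depends on the prior count, and it overlaps another gene, so its reads may be divided between them.

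**Figure D1:**
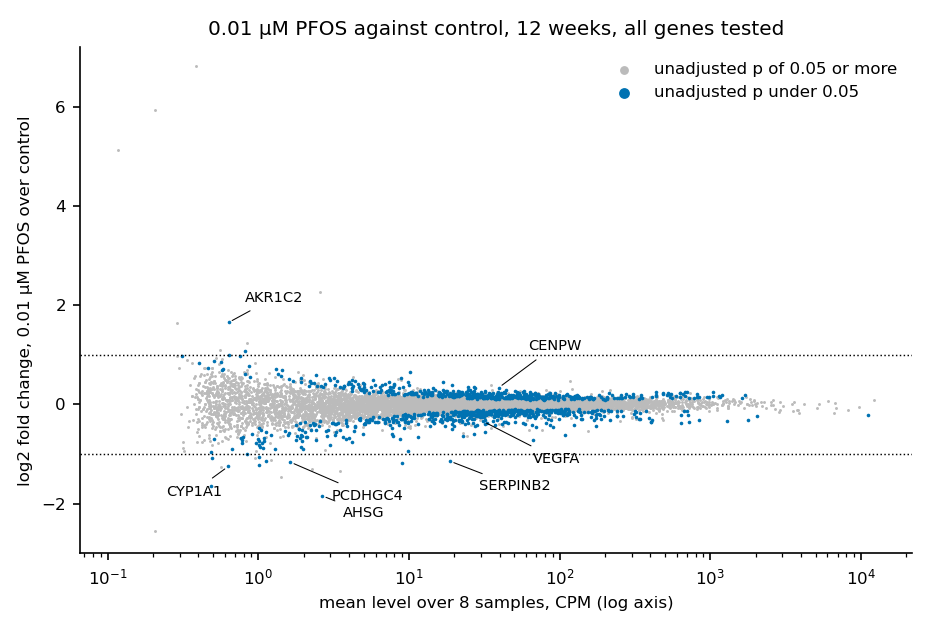
Each point is 1 of 12742 genes. The x axis is the mean level over the 8 samples in CPM on a log axis, and the y axis is the log2 fold change of 0.01 µM PFOS over control at 12 weeks. Blue points have an unadjusted p under 0.05, grey points do not, and dotted lines mark 2-fold. The cloud narrows around 0 as the level rises, and 26 points lie at or beyond 2-fold.

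A gene's 4 exposed samples all lay above its 4 controls for 164 genes (1.29%) and all below for 193 (1.51%). With 4 against 4 samples, full separation in either direction has a two-sided exact permutation p of 0.0286. The 2 shares together are near that rate, so nothing is read from them. Among the separated genes with a mean of at least 10 counts, the 12 of lowest unadjusted p in each direction were chosen for display. Their separation is thus what picked them. Their log2 fold changes ran from 0.19 to 1.65 in size, and 18 of the 24 were under 0.5.

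Among the higher genes, CENPW had the lowest unadjusted p of all 12742. It encodes a centromere protein that helps to build the kinetochore and lies at chr6:126340115-126483320 (GRCh38.p14). It stood at 32.2, 36.1, 34.1 and 36.6 CPM in the controls and 39.2, 42.6, 43.7 and 50.3 CPM in the exposed cells. Its log2 fold change was 0.34 (SE 0.07, 95% interval 0.19 to 0.48, unadjusted p = 6.79e-05, adjusted p = 0.472). All exposed samples were above all controls, and the fourth was the highest.

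AKR1C2, which reduces the potent androgen dihydrotestosterone, had the largest estimate of the 24. Control levels were 0.387, 0.385, 0.273 and 0.164 CPM and exposed levels 1.16, 0.441, 0.597 and 1.66 CPM, a log2 fold change of 1.65 (SE 0.44, 95% interval 0.74 to 2.56, unadjusted p = 0.00109, adjusted p = 0.472). The groups did not overlap, but the second exposed sample lay close to the controls, and the mean was only 11.5 counts. Its neighbours on chromosome 10 were of the same sign: AKR1C3, which makes testosterone from androstenedione, differed by 0.70 (SE 0.23) and AKR1C1, which inactivates progesterone, by 0.54 (SE 0.21). The 3 are close paralogs, so reads may be divided between them, and AKR1C1 overlapped between groups.

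NQO2, a quinone reductase, stood at 22 to 27.1 CPM in controls and 28.3 to 30.6 CPM in exposed cells, a log2 fold change of 0.27 (SE 0.07). MDM4, the partner of MDM2 in restraining p53, stood at 18.5 to 26.5 CPM and 27.1 to 32.5 CPM, a log2 fold change of 0.35 (SE 0.10). Control replicate 3 was the lowest sample for both genes. DERL3, which pulls misfolded proteins out of the endoplasmic reticulum, differed by 0.50 (SE 0.14), from 4.53 to 5.28 CPM in controls to 6.34 to 7.33 CPM. The remaining higher genes were SCNN1D, a sodium channel subunit, at 0.45 (SE 0.12), FAM104B at 0.35 (SE 0.09), TENT5B at 0.29 (SE 0.08), POLR1H, an RNA polymerase I subunit, at 0.27 (SE 0.07), UXT, a prefoldin-like chaperone, at 0.25 (SE 0.07), ZNF22 at 0.24 (SE 0.07) and MRPL11, a mitochondrial ribosomal protein, at 0.24 (SE 0.06).

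Among the lower genes, VEGFA came first. It encodes the main growth factor for blood vessels, which in the ovary serves the vascular bed of the follicle and corpus luteum, and lies at chr6:43770211-43786487. Controls stood at 34.3, 30.3, 39.1 and 34.4 CPM and exposed samples at 29.0, 26.4, 28.3 and 25.6 CPM, a log2 fold change of -0.34 (SE 0.07, 95% interval -0.49 to -0.18, unadjusted p = 0.000162, adjusted p = 0.472). The lowest control lay close above the highest exposed sample.

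KRT17, an intermediate filament keratin at chr17:41619442-41624575, was the most abundant of the 24 in CPM. It stood at 773, 807, 866 and 791 CPM in controls and 650, 679, 629 and 570 CPM in exposed cells, a log2 fold change of -0.36 (SE 0.08, unadjusted p = 0.000392). Every exposed sample was well below every control. With DESeq2 on the 8 samples alone its adjusted p was 0.000431 at a log2 fold change of -0.36. TOB1, DUSP2 and XIRP1 were the other 3 genes below 0.05 in that fit, at -0.41, -0.63 and -0.93. The lowest adjusted p of any gene was 0.763 with edgeR on the same 8 samples and 0.134 with DESeq2 on the 16 samples.

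Other lower genes bear on growth factor signaling and transcription. SPRY2, a feedback inhibitor of receptor tyrosine kinases, stood at 39.4 to 44.6 CPM in controls and 35.3 to 36.4 CPM in exposed cells, a log2 fold change of -0.23 (SE 0.06). MAFF, a small MAF transcription factor that pairs with NRF2, stood at 141 to 163 CPM and 114 to 140 CPM, a log2 fold change of -0.30 (SE 0.07). SALL2, a zinc finger factor, differed by -0.31 (SE 0.08). For MAFF and SALL2 the highest exposed sample lay only just under the lowest control.

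ADAMTS1, the protease that cleaves versican in the ovulating follicle, stood at 341, 327, 338 and 312 CPM in controls and 310, 286, 269 and 292 CPM in exposed cells, a log2 fold change of -0.19 (SE 0.05). The groups were separated by a narrow gap. COL13A1, a transmembrane collagen, differed by -0.86 (SE 0.21). PCDHGC4, a cell adhesion protocadherin, had 2.88, 2.09, 1.69 and 2.34 CPM in controls and 0.552, 0.826, 1.36 and 1.28 CPM in exposed cells, a log2 fold change of -1.16 (SE 0.28). It shares exons with the other protocadherins of its cluster, so the division of its reads is uncertain. LENG9, DAAM1, an actin regulator, and CCDC113, a protein of cilia, differed by -0.65 (SE 0.14), -0.33 (SE 0.08) and -1.23 (SE 0.31).

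**Figure D2:**
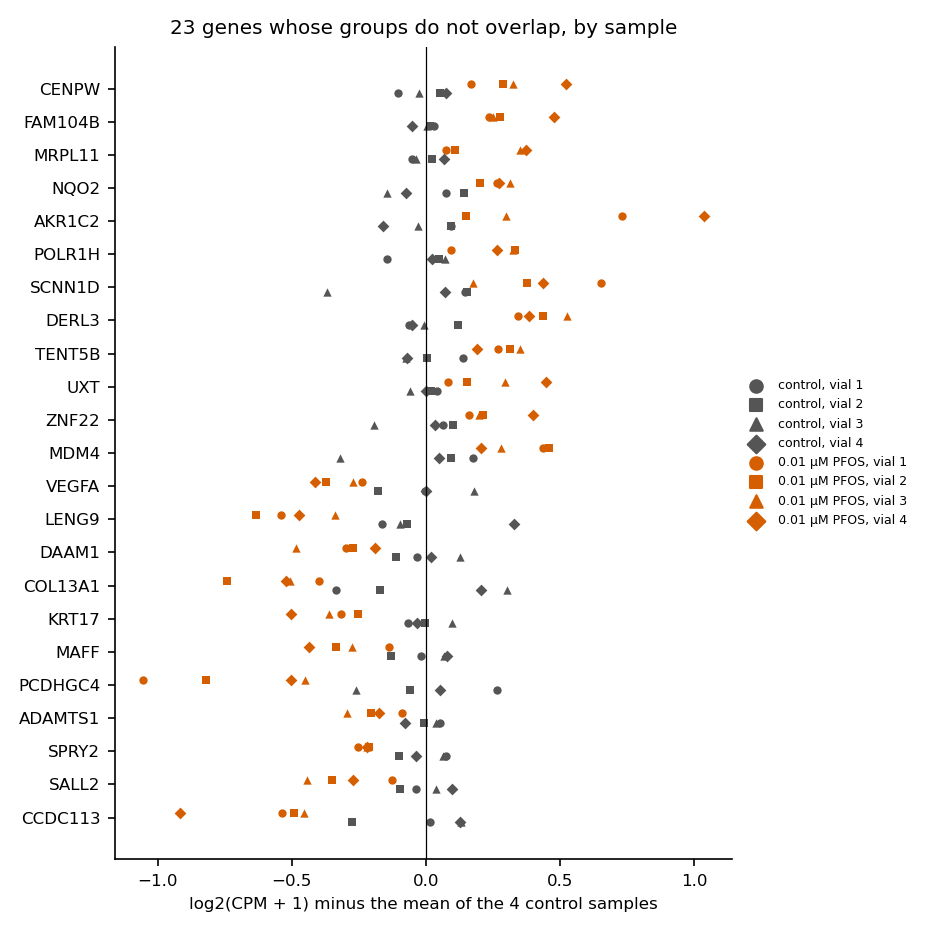
Genes whose 2 groups did not overlap and whose unadjusted p was lowest, 23 of the 24. The x axis is log2(CPM + 1) minus the mean of the 4 controls, grey symbols are control samples and orange symbols 0.01 µM PFOS, and symbol shapes mark the 4 vials. Grey and orange symbols do not overlap for any of these genes.

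The gene lists describe the small differences by group. They were chosen with earlier results of these data known, so a list that stands out is a description and not a test. A list is described by how many of its tested members had an unadjusted p under 0.05, to be read beside 4.07% higher and 4.41% lower over all genes, and by its median log2 fold change beside 0.00 over all genes. No member of any list had an adjusted p of at most 0.05.

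The cytosolic ribosomal proteins, the protein part of the translating ribosome, were the most uniform list. All 78 members had log2 fold changes above 0, from 0.03 to 0.27, with a median of 0.15, and 35 had an unadjusted p under 0.05. RPS13 stood at 240, 261, 242 and 269 CPM in controls and 245, 282, 318 and 334 CPM in exposed cells, a log2 fold change of 0.22 (SE 0.07). RPS16 differed by 0.22 (SE 0.07), RPS19 by 0.20 (SE 0.07) and RPL39 by 0.19 (SE 0.06). No ribosomal protein gene had groups that did not overlap. The list's median log2 deviation from the mean of the 8 samples was 0.19 and 0.26 in exposed vials 3 and 4. It was -0.152 and -0.0005 in exposed vials 1 and 2, close to the control range of -0.147 to -0.011.

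Samples with the same replicate number were taken as the same vial, which the labels do not state. Within vials, the median ribosomal protein gene differed from the control of the same vial by -0.01 in vial 1, 0.00 in vial 2, 0.29 in vial 3 and 0.27 in vial 4 on the log2 scale. The number of the 78 genes above the same vial's control was 36, 42, 76 and 77. As a share of all reads, these genes took 5.14% to 5.66% in the controls and 5.16%, 5.62%, 6.55% and 6.52% in exposed vials 1 to 4. Without vial 3 in any group, 76 were above 0 and 3 had an unadjusted p under 0.05, and without vial 4 these counts were 74 and 11. Leaving out 1 sample gave from 11 (without exposed replicate 4) to 69 (without exposed replicate 1) at an unadjusted p under 0.05, with 13 without exposed replicate 3, 15 without control replicate 1 and 18 without control replicate 3. Transcript length moved with the same samples. The shortest 20% of genes by effective length had a median log2 fold change of 0.05 and the longest 20% -0.02, and the median deviation of the shortest 20% was 0.08 and 0.06 in exposed vials 3 and 4 and -0.08 to 0.02 in the controls. Of the 78 ribosomal protein genes 63 lie in the shortest 20%, and the part of length in their difference was not tested.

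Ribosomal protein mRNAs are known for a run of pyrimidines at their very start, the TOP tract, through which mTOR and LARP1 control their translation. The windows below, 15 bases before and 15 from the RefSeq start site in GRCh38.p14, are shown for the 6 members of lowest unadjusted p with a window. They are given 5′ to 3′ on the gene's strand, with the start base and the C or T run after it in capitals.
RPS13 (chr11:17077653-17077682, minus strand): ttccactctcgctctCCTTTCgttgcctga
RPS16 (chr19:39435935-39435964, minus strand): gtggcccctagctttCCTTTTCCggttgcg
RPS19 (chr19:41860240-41860269, plus strand): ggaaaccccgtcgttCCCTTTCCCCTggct
RPL39 (chrX:119791616-119791645, minus strand): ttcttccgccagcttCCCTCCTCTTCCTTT
RPL35 (chr9:124861943-124861972, minus strand): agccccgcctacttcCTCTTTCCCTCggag
RPS12 (chr6:132814554-132814583, plus strand): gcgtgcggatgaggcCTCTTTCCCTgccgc
The tract searched was a C at the start site followed by at least 4 bases that were each C or T, on the gene's strand only. It was found in 42 of the 62 ribosomal protein genes with a RefSeq window (67.7%) and in 4.04% of all 27305 genes with one. Since 62 of 78 is under 80% of the list, nothing over the list was read from it.

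Nuclear genes of the respiratory chain, which make the subunits of complexes I to V that are imported into mitochondria, had the same pattern at a lower size. Of 51 tested, 47 were above 0 with a median of 0.08, and 8 were higher at an unadjusted p under 0.05. UQCRFS1, the Rieske protein of complex III, stood at 116, 132, 111 and 114 CPM in controls and 125, 132, 141 and 130 CPM in exposed cells, a log2 fold change of 0.16 (SE 0.06). NDUFS3 of complex I differed by 0.20 (SE 0.07) and COX5B of complex IV by 0.19 (SE 0.07). The vial medians were 0.02, 0.03, 0.11 and 0.12. The shortest 20% of genes had a median of 0.05, or 0.04 without the ribosomal protein genes. The part of length in the difference of this list was not tested. The 8 genes became 25 without exposed replicate 1, 14 without exposed replicate 2, 5 without exposed replicate 3, 3 without exposed replicate 4, 4 without control replicate 1 and 0 without vial 3.

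The 13 respiratory chain genes of the mitochondrial genome went the other way. All 13 were below 0, with a median of -0.14, and 1, MT-COX1, had an unadjusted p under 0.05. Per length, MT-COX1 stood at 13904 ± 1084 TPM (transcripts per 1000000) in controls and 11935 ± 1674 TPM in exposed cells (mean ± SD, n = 4 each), a log2 fold change of -0.21 (SE 0.09). By the same scale ACTB, the cytoskeletal actin, stood at 9473 ± 673 TPM in controls. Exposed vial 3 was the low sample: the median difference from the same vial's control was -0.60 there and -0.09, 0.18 and 0.01 in vials 1, 2 and 4. Without vial 3 in any group the median of the 13 genes was 0.00.

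Metallothioneins, small cysteine-rich proteins that bind zinc and copper, were higher in the same samples. Of 9 tested genes 8 were above 0, with a median of 0.20, and 3 had an unadjusted p under 0.05. MT1F stood at 9.18, 10.2, 6.66 and 5.61 CPM in controls and 10.0, 10.9, 15.6 and 13.3 CPM in exposed cells, a log2 fold change of 0.65 (SE 0.19). MT1X differed by 0.32 (SE 0.11) and MT1M by 0.60 (SE 0.24). MT2A, the most abundant of those named, stood at 197 to 242 CPM and 214 to 306 CPM, a log2 fold change of 0.12 (SE 0.10). The vial medians were -0.01, -0.03, 0.38 and 0.64, and the 3 genes became 1 without vial 3 and 1 without vial 4. The part of transcript length was not tested for this list either.

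Cell cycle and DNA replication genes were mostly above 0, by small amounts. Of 40 tested, 31 were above 0 with a median of 0.08, and 8 were higher at an unadjusted p under 0.05 (5 with the vial as a block). GINS2, a subunit of the replicative helicase, stood at 50.4, 55.9, 44.0 and 45.9 CPM in controls and 53.1, 53.9, 64.0 and 59.0 CPM in exposed cells, a log2 fold change of 0.23 (SE 0.07). CDC25C and BUB1, which act at mitosis, differed by 0.20 (SE 0.08) and 0.16 (SE 0.06). The proliferation marker MKI67 differed by 0.00 (SE 0.07), TOP2A by 0.07 (SE 0.06) and PCNA by 0.08 (SE 0.05). Controls 3 and 4 were low for GINS2 and BUB1, and the list's vial medians were -0.01, -0.02, 0.15 and 0.17. The 8 genes became 15 without control replicate 2, 2 without control replicate 3, 4 without control replicate 4, 2 without exposed replicate 3 and 0 without vial 3.

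Among the inhibitors of cyclin-dependent kinases, CDKN1A (p21), a p53 target that halts the cycle, stood at 184, 190, 240 and 220 CPM in controls and 184, 158, 184 and 156 CPM in exposed cells, a log2 fold change of -0.29 (SE 0.11). The first exposed sample was level with the first control. CDKN2D (p19) stood at 19.0, 19.2, 13.7 and 14.5 CPM and 21.8, 21.4, 22 and 21.7 CPM, a log2 fold change of 0.39 (SE 0.13). Of 22 tested p53 targets, 0 were higher and 3 lower at an unadjusted p under 0.05. BTG2, an antiproliferative member, differed by -0.37 (SE 0.12), and MDM2 by -0.08 (SE 0.05).

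**Figure D3:**
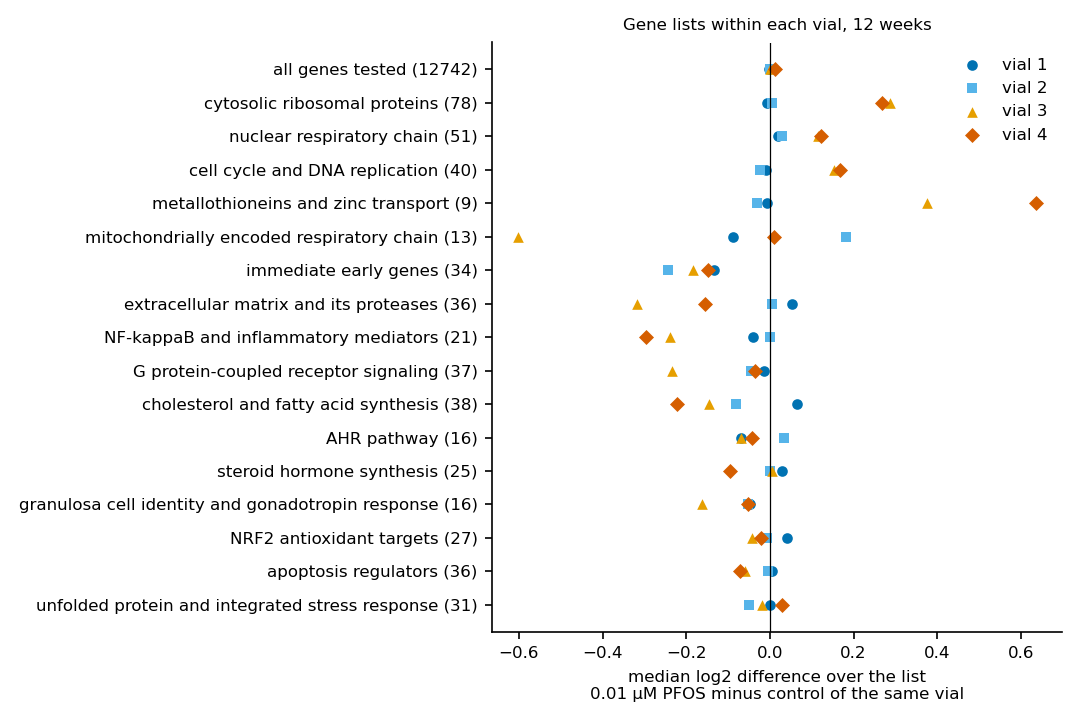
For each gene list, with its number of tested genes in brackets, the x axis gives the median over the list of the log2 difference between 0.01 µM PFOS and the control of the same vial, and each symbol is 1 vial. Same-numbered samples were taken as the same vial. Ribosomal protein and metallothionein genes lie near 0 in vials 1 and 2 and above 0 in vials 3 and 4. The immediate early genes lie below 0 in all 4, as do the G protein-coupled receptor signaling and granulosa identity genes.

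Immediate early genes, the transcription factors and feedback phosphatases that answer growth factor signals within minutes, had a list median below 0 in every vial. Of 34 tested, 30 were below 0 with a median of -0.19. At an unadjusted p under 0.05, 12 were lower and 1, SRF, was higher. The vial medians were -0.13, -0.24, -0.18 and -0.15. Medians below 0 in every vial were also found for the granulosa identity, G protein-coupled receptor, TGF-beta and glycolysis lists. The 12 lower genes became 7 without vial 4, and leaving out 1 sample gave 9 to 16.

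DUSP1, a phosphatase that switches off MAP kinases, stood at 1500, 1303, 1536 and 1398 CPM in controls and 1252, 992, 1302 and 1034 CPM in exposed cells, a log2 fold change of -0.33 (SE 0.09). MYC, a driver of growth and ribosome synthesis, stood at 327, 318, 391 and 368 CPM and 307, 306, 298 and 275 CPM, a log2 fold change of -0.24 (SE 0.06). Neither gene overlapped between the groups. FOSL2 differed by -0.21 (SE 0.06).

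The defining members varied more between samples. FOS stood at 480 to 858 CPM in controls and 500 to 755 CPM in exposed cells, a log2 fold change of -0.07 (SE 0.18). EGR1 stood at 360 to 654 CPM and 303 to 617 CPM, at -0.31 (SE 0.23), and NR4A1 at 223 to 328 CPM and 164 to 303 CPM, at -0.33 (SE 0.21). For all of them the groups overlapped widely.

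Extracellular matrix genes and their proteases were lower in vials 3 and 4. Of 36 tested, 30 were below 0 with a median of -0.13, and 13 were lower and 0 higher at an unadjusted p under 0.05. COL1A1, the main chain of type I collagen, stood at 2054, 1971, 2374 and 2399 CPM in controls and 2215, 1972, 1709 and 1627 CPM in exposed cells, a log2 fold change of -0.23 (SE 0.09). Exposed vials 3 and 4 were the lowest samples and controls 3 and 4 the highest. THBS1, an activator of TGF-beta, differed by -0.31 (SE 0.11). FN1 (fibronectin) differed by 0.01 (SE 0.08). The list's vial medians were 0.05, 0.00, -0.32 and -0.16. The 13 lower genes became 3 without vial 3, 2 without vial 4, 4 without control replicate 3, 8 without control replicate 4, 5 without exposed replicate 3 and 3 without exposed replicate 4.

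Inflammatory mediators under NF-kappaB were high in controls 3 and 4. Of 21 tested, 18 were below 0 with a median of -0.15, and 4 were lower and 0 higher at an unadjusted p under 0.05. IL6 stood at 65.1, 51.4, 116.9 and 99.7 CPM in controls and 55.9, 55.6, 49.6 and 41.1 CPM in exposed cells, a log2 fold change of -0.72 (SE 0.26). CXCL8, a neutrophil attractant, stood at 7.91, 7.32, 14.6 and 13.2 CPM and 8.05, 6.50, 8.15 and 8.21 CPM, at -0.48 (SE 0.23). The exposed samples of both lay near controls 1 and 2. Markers of leukocytes had summed counts of 350 to 560 in controls and 318 to 434 in exposed samples, and 5 of the 10 markers were at 3 counts or fewer in all 8 samples. The 4 lower genes became 8 without control replicate 2, 1 without control replicate 3, 2 without control replicate 4, and 2 without exposed replicate 2 or exposed replicate 4.

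Cholesterol and fatty acid synthesis genes followed the same controls. Of 38 tested, 34 were below 0 with a median of -0.11, and 4 were lower and 0 higher at an unadjusted p under 0.05. ACLY, which makes the acetyl-CoA for fatty acid synthesis, stood at 318, 318, 360 and 365 CPM in controls and 315, 316, 311 and 283 CPM in exposed cells, a log2 fold change of -0.15 (SE 0.06). The groups did not overlap, and controls 3 and 4 were the highest. ACACA differed by -0.13 (SE 0.05) and FASN by -0.14 (SE 0.08). The vial medians were 0.06, -0.08, -0.15 and -0.22. The 4 lower genes became 14 without control replicate 1, 8 without control replicate 2, 2 without control replicate 3 or control replicate 4, and 1 without vial 3. Genes of fatty acid oxidation and other PPAR targets had a median of -0.02 over 32 tested genes, with 0 higher and 4 lower at an unadjusted p under 0.05. CPT1A, which admits fatty acids to mitochondria, differed by -0.04 (SE 0.07).

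The AHR pathway held 16 tested genes, of which 5 were lower and 1 was higher at an unadjusted p under 0.05. The median of the list was -0.05, and 7 of the 16 genes were above 0. Without vial 3 the median was 0.01, with 8 of 15 tested genes above 0. CYP1A1, at chr15:74719542-74725528, had 0.719, 0.551, 1.47 and 0.817 CPM in controls and 0.221, 0.551, 0.597 and 0.111 CPM in exposed cells. Its log2 fold change was -1.25 (SE 0.40, 95% interval -2.08 to -0.42, unadjusted p = 0.00508, adjusted p = 0.565). Vial 2 had the same level in both groups, and control 3 was the highest of all. CYP1B1, a hydroxylase of estradiol and of polycyclic compounds, stood at 384, 371, 548 and 508 CPM in controls and 365, 399, 349 and 299 CPM in exposed cells, a log2 fold change of -0.36 (SE 0.11). Exposed vials 3 and 4 were the lowest samples and controls 3 and 4 the highest. The 5 lower genes of the list became 2 without vial 3 and 2 without vial 4.

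The receptor AHR stood at 67.4, 64.6, 73.6 and 71.6 CPM in controls and 57.7, 58.5, 60.0 and 57.5 CPM in exposed cells, a log2 fold change of -0.25 (SE 0.08), and its groups did not overlap. TIPARP, which modifies and restrains the receptor, stood at 154 to 218 CPM and 133 to 161 CPM, at -0.30 (SE 0.10). The receptor binds a core motif that was searched as GCGTG on both strands in the 300 bases around each RefSeq start site. It was found in 10 of the 13 AHR pathway genes with a window in 36.3% of all genes with one and in 51.0% of the genes tested that have one. The match of CYP1A1 begins 57 bases before its start site, and it is shown as the letters of the best known target of the receptor, with the motif in capitals.
CYP1A1 (chr15:74725569-74725598, minus strand): tccagggaaggagGCGTGgccacacgtaca

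Steroid hormone synthesis had 25 tested genes, of which 3 were higher, the AKR1C genes above, and 1 lower, CYP1B1, at an unadjusted p under 0.05. HSD3B1, which makes progesterone, stood at 13.1, 9.52, 10.2 and 5.67 CPM in controls and 15.7, 9.86, 11.0 and 10.3 CPM in exposed cells, a log2 fold change of 0.28 (SE 0.24). Every exposed sample was above the control of its vial, but the groups overlapped. STAR, which carries cholesterol into mitochondria, had 1.99 to 2.68 CPM and 1.49 to 2.50 CPM, at -0.28 (SE 0.27). CYP11A1, the first enzyme of steroid synthesis, was under 1 CPM in all samples and its 95% interval ran from -1.0 to 0.91, so a 2-fold lower level was not excluded at this depth.

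Granulosa identity genes had 16 tested members with 0 higher and 2 lower, WT1 and INHBA, at an unadjusted p under 0.05. WT1, a transcription factor of the developing and adult gonad, stood at 77.5, 73.0, 76.3 and 79.0 CPM in controls and 74.8, 66.2, 65.3 and 61.6 CPM in exposed cells, a log2 fold change of -0.19 (SE 0.06). INHBA, the activin and inhibin βA chain, stood at 10.3, 9.36, 19.8 and 16.3 CPM and 9.10, 10.4, 6.68 and 9.32 CPM, at -0.65 (SE 0.28), with controls 3 and 4 high. AMH differed by 0.13 (SE 0.09), GATA4 by 0.09 (SE 0.06), the gap junction gene GJA1 by 0.12 (SE 0.09) and FOXL2 by -0.19 (SE 0.29). In the wider TGF-beta, activin and BMP list of 39 tested genes, 0 were higher and 4 lower. GREM1, a secreted BMP antagonist, differed by -0.56 (SE 0.19), also with controls 3 and 4 high.

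Stress and death pathways were close to 0. NRF2 targets had 0 higher and 0 lower of 27 tested at an unadjusted p under 0.05, with a median of 0.00. NQO1 differed by 0.06 (SE 0.06), GCLM by 0.00 (SE 0.06) and HMOX1 by -0.11 (SE 0.08), and the 95% interval of every one of the 27 genes lay within 2-fold. Unfolded protein and integrated stress response genes had 0 higher and 1 lower of 31, and HSPA5, the main chaperone of the endoplasmic reticulum, differed by 0.01 (SE 0.05). Apoptosis regulators had 0 higher and 1 lower of 36. The lower gene was APAF1, the core of the apoptosome, at -0.14 (SE 0.07). BAX differed by -0.04 (SE 0.05) and BCL2L1 by -0.06 (SE 0.04).

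The members of further lists at an unadjusted p under 0.05 are again to be read beside 4.07% higher and 4.41% lower over all genes. G protein-coupled receptor signaling had 1 higher and 3 lower of 37 (5 lower with the vial as a block), with 32 below 0 and a median of -0.13. ADORA2B, an adenosine receptor, stood at 8.35 to 9.61 CPM in controls and 6.71 to 7.06 CPM in exposed cells, a log2 fold change of -0.36 (SE 0.10), and S1PR3 differed by -0.42 (SE 0.18). Glycolysis and hypoxia had 0 higher and 4 lower of 36, among them VEGFA and the glucose transporter SLC2A3 at -0.34 (SE 0.10), while SLC2A1 differed by 0.00 (SE 0.06). Heat shock chaperones had 0 higher and 1 lower of 20, interferon-stimulated genes 0 and 2 of 28, and the necroptosis, pyroptosis and ferroptosis list 0 and 2 of 16.

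The same concentration at 6 weeks used separate samples, 4 exposed and 4 control. Of 12836 genes, 0 were called there and 0 had an adjusted p of at most 0.05 in edgeR, and 1232 (9.60%) had an unadjusted p under 0.05. Over the 12645 genes tested at both times, the log2 fold changes of 6 and 12 weeks had a Pearson correlation of 0.12. Of the 24 leading genes of 12 weeks, 17 had the same sign at 6 weeks and 7 the opposite one. The share with the same sign over all genes was not counted. All 24 were nearer to 0 at 6 weeks, as values picked for their size at 12 weeks would tend to be. Of the 24, 2 had an unadjusted p under 0.05 at 6 weeks, AKR1C2 and MDM4. That count is not above the 9.60% of all genes, so nothing is read from it. AKR1C2 differed by 0.58 at 6 weeks and MDM4 by 0.14, both above 0 as at 12 weeks. CENPW differed by 0.02 and VEGFA by -0.01.

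The difference between the times was tested directly as an interaction over all 32 samples. Of 12988 genes, 0 had an adjusted p of at most 0.05, the lowest being 0.145, and 972 (7.48%) had an unadjusted p under 0.05. The 5 genes of lowest unadjusted p were on opposite sides of 0 at the 2 times. Genes picked by their difference between times would tend to be so. ZFP36L1, which destabilizes mRNAs with AU-rich elements, differed by 0.13 at 6 weeks and -0.27 at 12 weeks, and the growth factor target ETV4 by 0.31 and -0.53. C1QTNF6 differed by 0.23 and -0.27, BEAN1 by 0.56 and -0.68, and the ribosome-associated chaperone HSPA14 by -0.22 and 0.13. The medians of the ribosomal protein list were 0.06 at 6 weeks and 0.15 at 12 weeks, and those of the immediate early list 0.05 and -0.19.

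**Figure D4:**
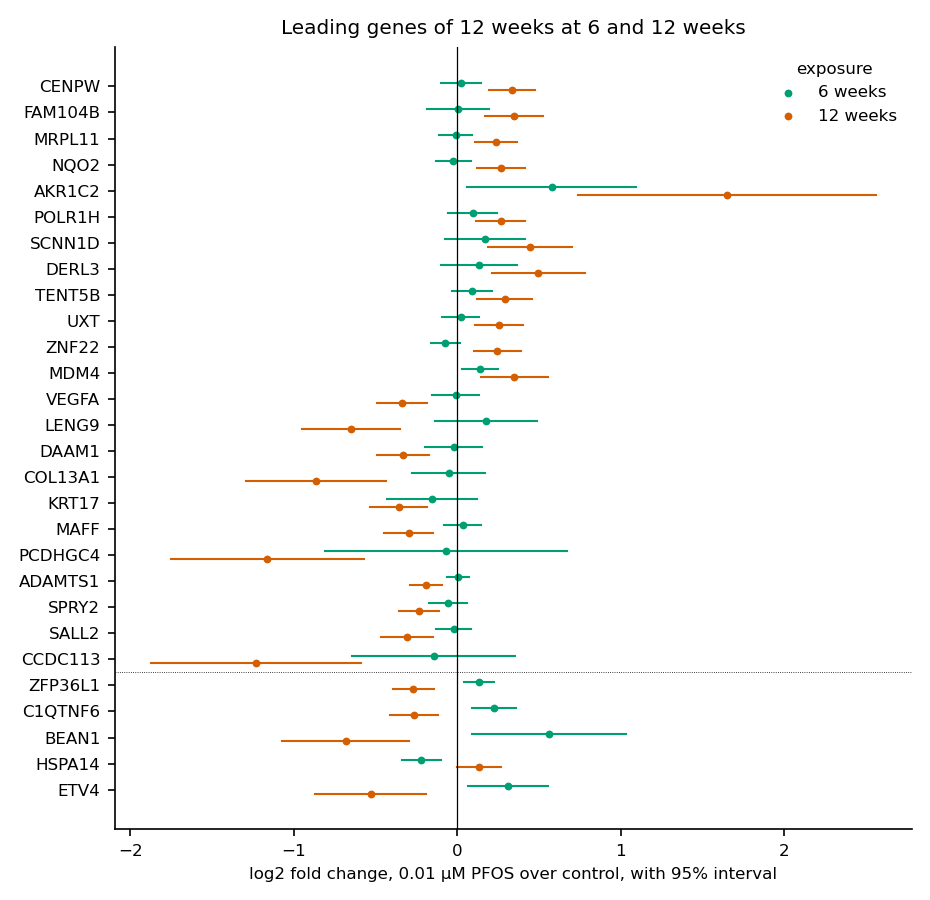
Log2 fold changes of 0.01 µM PFOS over the control of the same time (x axis) with 95% intervals, at 6 weeks (green) and 12 weeks (orange). The same 23 leading genes of 12 weeks stand above the dotted line and the 5 genes of lowest p in the difference between times below it. Most green points of the 23 lie close to 0, and the 5 genes, picked by that difference, lie on opposite sides of 0.

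Higher concentrations shared the same 4 control samples, so their values are set side by side and are not independent. At 12 weeks edgeR called 12 of 12742 genes (0.0942%) at 0.1 µM and 2 (0.0157%) at 1 µM, 13 genes in all. Of the 13, 9 had an unadjusted p under 0.05 at 0.01 µM, beside 8.48% over all genes, but the 13 were picked by contrasts with the same controls, so nothing is read from this count. All 13 were nearer to 0 at 0.01 µM than where they were called, as genes picked for size in another contrast would tend to be.

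F2RL3, the thrombin receptor PAR4, was called at both higher concentrations. At chr19:16888999-16892606, it stood at 3.59, 2.81, 4.92 and 3.92 CPM in controls and 2.81, 2.09, 2.33 and 1.44 CPM at 0.01 µM. The log2 fold changes were -0.81 (SE 0.22, 95% interval -1.27 to -0.35, adjusted p = 0.50) at 0.01 µM, -1.56 at 0.1 µM and -1.28 at 1 µM. The groups overlapped only by the second control and the first exposed sample, both at 2.81 CPM. CYP1A1 was at -1.25, -2.17 and -2.0.

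The secreted proteins SERPINB2, a plasminogen activator inhibitor, and IL11 were called at 0.1 µM. SERPINB2 stood at 18.5, 12.8, 39.3 and 32.4 CPM in controls and 14.6, 14, 10.4 and 7.71 CPM in cells at 0.01 µM. Its log2 fold change was -1.14 (SE 0.36), against -1.75 at 0.1 µM and -0.99 at 1 µM. IL11 was at -0.76, -1.13 and -0.46. Controls 3 and 4 were again high for SERPINB2. FOXJ1, a factor of ciliated cells, was at 0.20, -1.14 and -0.16, and PDE4D, a cyclic AMP phosphodiesterase called at 1 µM, at -0.05, -0.71 and -1.31. TTPA, the vitamin E transfer protein, was under 0.5 CPM in all samples, and its log2 fold change of 0.53 had a 95% interval from -0.29 to 1.36.

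The medians of the lists differed between concentrations too. Ribosomal protein genes were at 0.15 at 0.01 µM, -0.06 at 0.1 µM and -0.13 at 1 µM. Nuclear respiratory chain genes were at 0.08, -0.08 and -0.09, and metallothioneins at 0.20, -0.04 and -0.22. Immediate early genes were at -0.19, -0.38 and -0.28. The lists of ribosomal protein, nuclear respiratory chain and metallothionein genes were thus above 0 at 0.01 µM and below 0 at both higher concentrations. The controls were the same, and the difference between concentrations was not tested. With only exposed vials 1 and 2 kept at 0.01 µM, against all controls, these medians were -0.004, -0.013 and -0.021. The sign above 0 at 0.01 µM thus depended on the other exposed vials. This set was chosen after the values were seen, so its medians are a description.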

How the data were processed

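Stranded poly(A) libraries were sequenced on DNBSEQ. Per the labels and methods the authors aligned reads with HISAT2 2.0.4 and Bowtie2 2.2.5 to GRCh38.p14 and quantified genes with RSEM 1.2.8. The deposited expected counts were rounded to whole numbers here. The deposited TPM values, which are scaled to length and depth by the authors, were used only to describe levels. They entered no test. The deposited FPKM and normalized counts were not used. Of 47137 gene entries 18583 held values.

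Groups came from the sample labels. The 16 samples of 12 weeks were fitted together in edgeR 4.0.16 (R 4.3.3) with filterByExpr, TMM scaling and robust quasi-likelihood tests, and p-values were Benjamini-Hochberg adjusted over all 12742 genes. A call needed an adjusted p of at most 0.05 and a 2-fold change. Intervals are 95% and, like SEs, refer to log2 fold changes of 4 against 4 samples. Groups were compared for overlap on log2(CPM + 1). DESeq2 1.42.0, other scalings, filters and sample sets were alternatives. The fit was tested on simulated counts.

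The members, gene lists and named genes were chosen with earlier results of these data known. Named genes were the 24 leading genes, the members of each list with the lowest unadjusted p under 0.05 (up to 4) with up to 3 defining members, genes called at 0.1 or 1 µM, 5 genes for the difference between times, and F2RL3, CYP1A1, CYP1B1, TIPARP and TTPA. Other members of lists appear only in counts unless said, and a few named genes are not reported here.

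Same-numbered samples were taken to come from the same vial, because the study calls each vial a biological replicate. The labels give only the replicate number, and all values within a vial and the block rest on this reading. Deviations from the group means correlated by 0.39, -0.10, 0.15 and 0.20 for vials 1 to 4 between control and exposed samples (mean 0.16). The mean over other pairs was -0.05. It is largely fixed by the first mean, because deviations from a group mean sum to 0, so nothing is read from it. Control 1 with exposed replicate 2 reached 0.16. The p-values measure spread between vials of 1 line. Median absolute log2 differences were 0.08 to 0.12 between controls, 0.09 to 0.14 between exposed samples and 0.08 to 0.13 between the groups within a vial.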

Additional observations from a re-analysis of the deposited data

Results flagged for a closer look

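A sample was marked where its distance to the nearest other sample of its group of 4 took up more of the group's range than Dixon's 95% limit allows. Chance marks about 1 group in 20, and 13 of 152 groups (8.55%) were marked.

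Control replicate 3 was marked for AFP at 9.61 CPM, AHSG at 13.1 CPM, ALB at 14.7 CPM, AMBP at 3.28 CPM, APOB at 6.23 CPM and GPC3 at 3.28 CPM, each high, and for the liver list at a median deviation of 1.42 on the log2 scale. The whole list of 24 liver genes had 2767 counts in this sample and 1129 to 1365 in the other 7, and 4 of the 24 genes were at 3 counts or fewer in all 8. Exposed replicate 2 was marked for GPC3, high at 0.716 CPM, and for CXCL8, low at 6.50 CPM.

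Exposed replicate 4 was marked for FAM104B, high at 11.6 CPM, and for the leukocyte markers, low at a median deviation of -0.25 over 3 tested genes. Control replicate 4 was marked for LENG9, high at 5.78 CPM. Exposed replicate 3 was marked for the glycolysis and hypoxia list, high at a median deviation of 0.0201.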

How the results depend on the processing

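The count of called genes was 0 under every alternative given here except vials 3 and 4 alone, which gave 43. Genes with an adjusted p of at most 0.05, 0 as reported, were 4 with DESeq2 on the 8 samples, 1 (ZFP36L1) without exposed replicate 1, 1 (OTUD1) with vials 1 and 2 alone and 791 with vials 3 and 4 alone, and leaving out single replicates gave 0 to 1. Genes with an unadjusted p under 0.05, 1080 as reported, were 678 with DESeq2 on the 8 samples, 1644 with edgeR on 32 samples, 517 with vials 1 and 2 alone, 2742 with vials 3 and 4 alone, 578 without controls 3 and 4, and 337 to 1579 when replicates were left out, the lowest without vial 3. They were 626 without vial 4 and 575 without control 3 alone. The genes whose interval excluded a 2-fold change numbered 11561 to 12350, from 12268. Their share of the genes tested, 96.3% as reported, depended on the filter. It was 73.0% of 16901 genes without a filter on low counts and 99.1% with at least 10 counts in every sample. With DESeq2 it was 71.9% on 16 samples and 73.5% on 8. Direction among genes at an unadjusted p under 0.05 moved from 48.0% higher to 61.2% without control 4, 59.3% without controls 3 and 4, 59.0% without exposed replicate 1 and 56.5% without exposed replicate 2, and was 41.0% with edgeR and 42.0% with DESeq2 on the 8 samples, 55.9% with edgeR on 32 samples and 55.1% without vial 4. With vial number as a replicate block, 0 genes had an adjusted p of at most 0.05 and 1114 an unadjusted p under 0.05, and the block changed no call. Genes whose effect differed between times, 0 as reported, were 3 (ZFP36L1, MAFF and C1QTNF6) without replicate 1 and 1 (TINAGL1) without replicate 2, so 0 to 3 over replicates left out, and 0 under the block. The sets of 2 vials and those without 2 controls were chosen after seeing the data, so their counts support nothing. Of 147 named genes 41 changed sign under some alternative. Examples are AFP, from -1.29 to 0.30 without control replicate 3, and others with fewer vials: S1PR3 turned from -0.42 to 0.07, COL1A1 from -0.23 to 0.06 and CYP1B1 from -0.36 to 0.02 with vials 1 and 2 alone, and CXCL8 from -0.48 to 0.02 without controls 3 and 4. Of the 474 genes whose interval reached 2-fold, 420 had a mean below 50 counts.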
